A study of Arabidopsis thaliana with 12 samples.

Results

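COR15A (AT2G42540) and COR15B (AT2G42530) are a pair of cold-regulated genes of Arabidopsis thaliana, and their RNA was followed here over 4 groups of arrays that differed in the time of a light pulse. The members were chosen by gene: the probe sets annotated to COR15A alone and to COR15B alone, which gave 1 probe set each (263497_at and 263495_at), 2 genes of the 13286 that had a probe set of their own. The genes were picked because their values over these same groups were already known, so their levels and differences are described below without a test.

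COR15A and COR15B encode small proteins of the late embryogenesis abundant type, which are imported into the chloroplast stroma and help to protect chloroplast membranes when a leaf freezes and its cells lose water. Both are classic targets of the CBF transcription factors, which bind a dehydration-responsive element in their promoters after a drop in temperature. The circadian clock and light signalling are known to set how strongly the CBF pathway responds to cold over the day.

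The study used wild-type (WT) seedlings of the Columbia ecotype, 15 days old, which were grown in cycles of 12 h of white light and 12 h of dark and then moved to constant dark. The groups were the day pulse (1 h of white light in the middle of the subjective day), the day control (same time, no pulse), the night pulse (1 h of white light in the middle of the night) and the night control (no pulse), with 3 Affymetrix ATH1 arrays each of RNA from aerial rosettes. No group carried a mutation or a transgene, and the growth temperature is not stated in the labels. The night samples carry the label CT 6 and the day samples CT 18, which is the reverse of counting from subjective dawn, and the groups here follow the sample titles. Day and night samples may also differ in how long the seedlings had been in the dark. Comparisons between the day and night groups cannot tell length of darkness apart from time of day. The labels do not say whether the 3 arrays of a group came from separately grown plants, so every p-value measures only the spread between these arrays, and precision is limited by their number.

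A probe set's level is given below as its normalized signal, which is the deposited intensity after quantile normalization over the 12 arrays. Signals below 21.75, the lowest mean signal among the 13647 probe sets kept for testing, are called dim. Before normalization the median signal per array lay between 23.5 and 63.5. The ratio of 3′ to 5′ probe signal of the GAPDH control, a measure of RNA integrity, was 9.29 on day pulse array 1 and 8.75 on day control array 2, and 2.16 to 5.16 on the other 10 arrays. Leaf marker genes were present on every array. The 4 of 11 listed markers that were measured summed to signals of 23345 to 23644 on day pulse arrays and 12145 to 19686 on day control arrays. Their sums were 19138 to 21781 on night pulse arrays and 18535 to 21756 on night control arrays. The 2 measured root markers of 7 listed summed to 401 to 769.5, 856 to 913, 1299 to 1835 and 1062 to 1923 on the arrays of the same 4 groups in that order. The part of leaf content, root content and RNA integrity in the results below was not tested. In whole rosettes, fewer cells of a type and less RNA per cell cannot be told apart.

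COR15A RNA was abundant after the day pulse and dim without it. Its normalized signal was 1791, 2551 and 2500.1 on the day pulse arrays, against 15.1, 7.28 and 14.9 on the day control arrays. It was 249.8, 401 and 842 on the night pulse arrays, against 63.1, 74.4 and 74.5 on the night control arrays. All 3 arrays of each pulse group lay above all 3 arrays of their own control, and no 2 of the 4 groups overlapped.

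COR15B gave the same order of groups. Its normalized signal was 1079, 1486 and 1258 on the day pulse arrays, against 26.1, 6.44 and 15.2 on the day control arrays. It was 229.7, 288 and 600.5 on the night pulse arrays, against 28.6, 39.7 and 94.0 on the night control arrays. Again no 2 groups overlapped, although the gap between the lowest night control array (28.6) and the highest day control array (26.1) was small. For each gene the night pulse arrays were spread widely, with array 3 well above the other 2, whereas the day pulse arrays lay close together after normalization. Before it, day pulse arrays 1, 2 and 3 read 1021.9, 2286 and 2389.4 for COR15A. For COR15B they read 612.3, 1357.7 and 1244.6.

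Both genes therefore had the order day pulse, night pulse, night control, day control, from the highest to the lowest mean. This order was shared by 466 of 7307 probe sets with 1 gene, or 6.38%. Before normalization the deposited signals of day pulse array 1 (1021.9 for COR15A and 612.3 for COR15B) lay below those of night pulse array 3 (1111.8 for COR15A and 794.6 for COR15B), so the neighbouring pulse groups then overlapped on that 1 pair of arrays.

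**Figure D1:**
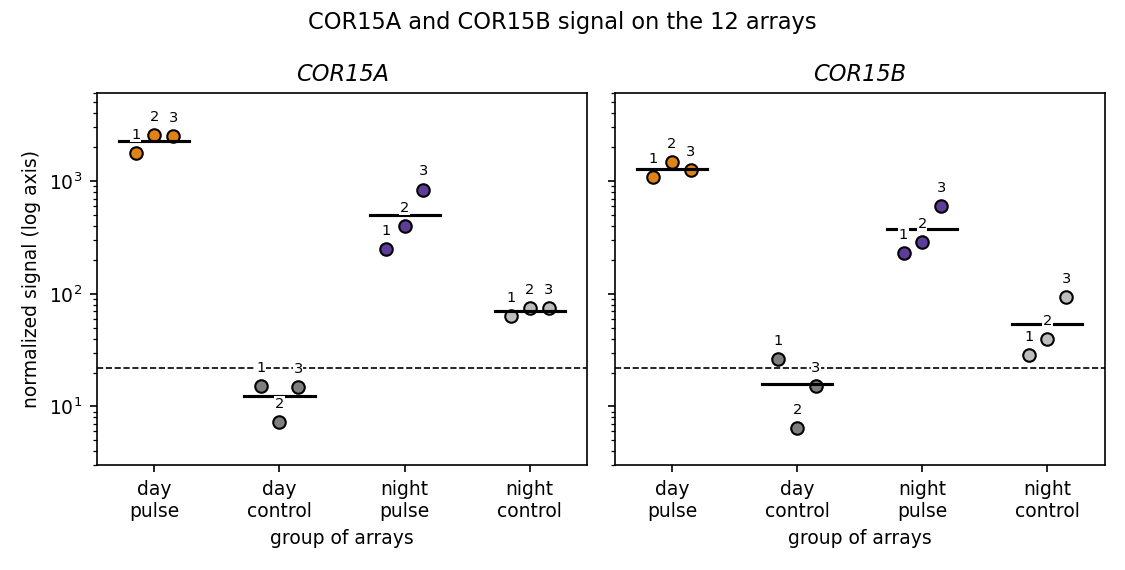
Normalized signal of COR15A and COR15B on each of the 12 arrays (log axis); points are arrays, numbers are replicates, bars are group means and the dashed line marks 21.75, the lowest mean signal kept for testing. The day pulse arrays stand highest for both genes (1791 to 2551 for COR15A and 1079 to 1486 for COR15B), and the day control means lie under the dashed line.

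In the subjective day, COR15A averaged 2281 ± 425 after the pulse and 12.4 ± 4.46 without it (SD, n = 3 each). The difference between the day pulse and the day control was 7.34 ± 0.36 (log2 of signal plus 2, ± SE). As the day control mean was dim, a bound was also taken with every dim signal raised to 21.75, and on that scale COR15A was at least 94.9-fold higher after the day pulse. Among the increases of all 13647 probe sets kept, COR15A ranked 2 on either scale. COR15B averaged 1274 ± 204 after the day pulse and 15.9 ± 9.85 in the day control (SD, n = 3 each), a log2 difference of 6.31 ± 0.48 (SE). With dim signals raised in the same way, COR15B was at least 50.4-fold higher, and it ranked 7 as measured and 8 with dim signals raised. Over all probe sets kept, 22.7% had day pulse arrays that were all above the day control arrays, and 42.7% passed the test of that comparison in either direction. The test was limma's moderated test with a Benjamini-Hochberg adjusted p under 0.05, and a gene is called higher or lower, or said to have risen or fallen, only where it passed; for the COR15 pair and the genes most similar to it, which were not tested, the words compare measured means.

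At night the same light pulse was accompanied by smaller differences. COR15A averaged 498 ± 308 after the night pulse and 70.7 ± 6.56 in the night control (SD, n = 3 each), a log2 difference of 2.60 ± 0.36 (SE) or 6.08-fold. COR15B averaged 373 ± 199 after the night pulse and 54.1 ± 35.0 in the night control (SD, n = 3 each), a log2 difference of 2.79 ± 0.48 (SE) or 6.92-fold. Their ranks among the increases at night were 72 for COR15A and 62 for COR15B. Night pulse array 3 carried much of the spread: set against the night control mean, COR15A was 3.47-fold, 5.56-fold and 11.6-fold higher on night pulse arrays 1, 2 and 3, and COR15B was 4.66-fold, 5.85-fold and 12.1-fold higher. Without array 3 the night difference was 2.13 for COR15A and 2.38 for COR15B (log2). Non-overlapping arrays with the pulse above the control were seen at night for 17.5% of the probe sets kept, and 12.9% passed the test in either direction. Of the 12 arrays, night pulse array 3 also had the highest 3′ to 5′ ratio of the actin control, 37.1 against 13.5 to 27.7 on the others, and the part of this in its higher COR15 signals was not tested.

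The effect of the pulse differed between the times by 4.74 ± 0.52 for COR15A and 3.52 ± 0.67 for COR15B (day effect minus night effect, log2 ± SE). With dim signals raised to 21.75 these values were 3.96 ± 0.46 for COR15A and 2.86 ± 0.54 for COR15B. Among all probe sets kept, the day-minus-night differences ranked 5 for COR15A and 41 for COR15B as measured, and 9 for COR15A and 69 for COR15B with dim signals raised. Of the probe sets kept, 12.7% passed the test of this difference. Time of day and length of darkness cannot be told apart in it.

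Levels in the dark and levels after light both entered that difference. The day control was below the night control by a log2 difference of -2.38 ± 0.36 for COR15A and -1.64 ± 0.48 for COR15B (SE), at least 3.05-fold lower and at least 1.98-fold lower with dim signals raised. Day control arrays lay wholly below night control arrays for 31% of probe sets kept, and 48.4% passed the test of the 2 controls. After light the order was turned round: the day pulse was above the night pulse by 2.35 ± 0.36 for COR15A (5.11-fold) and 1.88 ± 0.48 for COR15B (3.68-fold), log2 ± SE. In this comparison, 22.4% of probe sets had day pulse arrays wholly above night pulse arrays and 34.9% passed the test.

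The arrays with a high GAPDH ratio had low COR15 signals. Day pulse array 1 was the lowest of its group for both genes and day control array 2 was the lowest of its group for both, which held for 42.2% and 34.9% of all probe sets kept on those arrays. Without these 2 arrays the day difference was 7.24 for COR15A and 5.98 for COR15B, and the day-minus-night difference was 4.65 for COR15A and 3.19 for COR15B (log2).

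**Figure D2:**
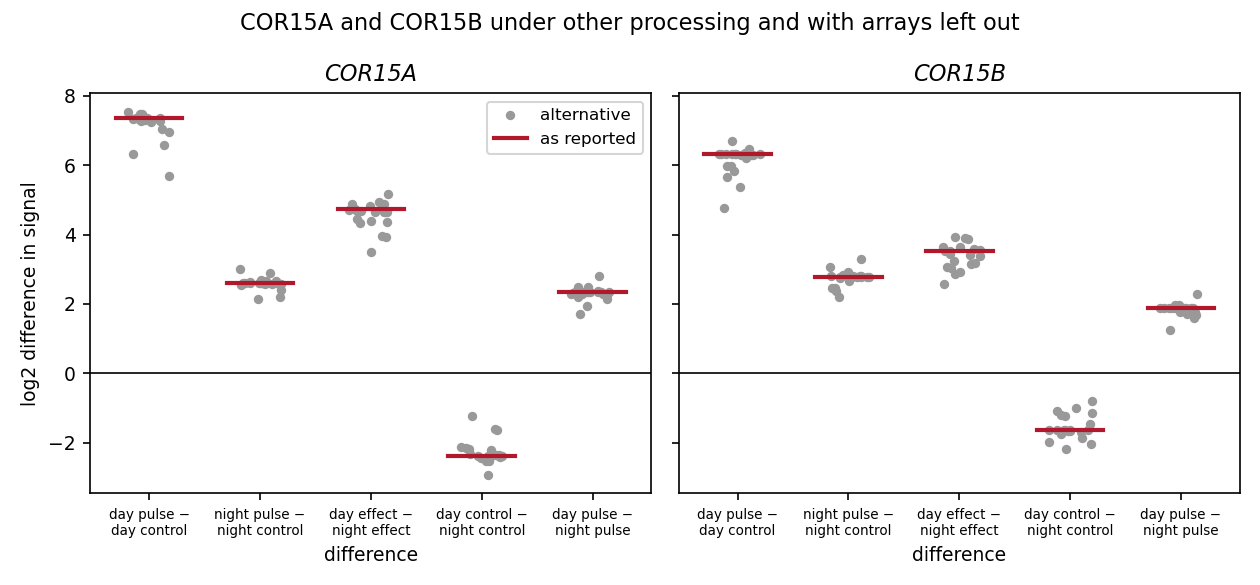
Log2 differences of COR15A and COR15B in the 5 comparisons under each other way of processing or of leaving out an array (points), with the value as reported as a red line. The points stay on 1 side of 0 in each of the 5 comparisons, and the day pulse differences are smallest with larger pseudocounts, down to 5.69 for COR15A and 4.77 for COR15B.

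COR15A and COR15B followed each other from array to array. Their normalized log2 signals had a Pearson correlation of 0.985 and a Spearman correlation of 1 over the 12 arrays, a description that is dominated by the 4 group levels, since the arrays fall into separate groups. Within each of the 4 groups both genes put the 3 arrays in the same order, and their deviations from the group means had the same sign on 10 of 12 arrays. The 2 genes share the arrays and their RNA, and whether probes designed for one also bind RNA of the other was not tested. Both probe set names end in _at, the Affymetrix suffix for a set designed to match a single transcript.

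The other cold genes that could be tested were fewer than those listed. Only 4 of 28 listed cold-protective genes and 8 of 38 listed regulators of the cold response had a probe set annotated to them alone. All 12 of these were bright enough to be kept, so none was left out for being dim. After the day pulse all 4 protective genes were called higher, with a median log2 difference of 1.56, against -0.04 over all probe sets. Of the 4, COR47, LTI30 and TIL had day differences far below those of COR15A and COR15B, as did CHL. At night 1 of the 4, TIL, was called higher and 3 were not called, with a median of 0.95, against -0.01 over all probe sets. The shares called higher over all probe sets kept were 21% in the day and 6.07% at night.

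LTI30, a dehydrin that binds membranes, had the largest day difference of the 4 protective genes. Its signals were 145, 367 and 216 on day pulse arrays, against 31.8, 32.2 and 46.1 on day control arrays. It rose by 2.58 ± 0.58 (log2, SE, limma adjusted p = 0.00288). At night LTI30 read 73.8, 167 and 252 after the pulse and 39.5, 23.5 and 153 without it. These groups overlapped only through night control array 3 (153). LTI30 was not called at night (1.44 ± 0.58, adjusted p = 0.14), but was called under 1 of 24 alternatives (adjusted p = 0.0124).

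CHL, a lipocalin of the chloroplast that protects thylakoid lipids, averaged 502 ± 200 in the day pulse and 135 ± 16.6 in the day control (SD, n = 3 each). It rose by 1.81 ± 0.26 after the day pulse (log2, SE, limma adjusted p = 9.37e-05). At night CHL averaged 1037 ± 260 with the pulse and 883 ± 70.7 without it, and it was not called (0.20 ± 0.26, adjusted p = 0.717). The difference between these effects passed the test (1.61 ± 0.37, adjusted p = 0.0124), and was not called without normalization (0.0555) or with arrays centred on their medians (0.0704). Unlike the COR15 genes, CHL was lower after the day pulse than after the night pulse (-1.08, adjusted p = 0.00591).

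TIL, a temperature-induced lipocalin, averaged 1724 ± 547 in the day pulse and 689 ± 147 in the day control (SD, n = 3 each), a rise of 1.30 ± 0.27 (log2, SE, limma adjusted p = 0.00156). At night TIL averaged 711 ± 45.7 with the pulse and 362 ± 115 without it, a rise of 1.03 ± 0.27 (adjusted p = 0.0211). The night call of TIL was lost without night pulse array 1 (adjusted p = 0.0561), night pulse array 3 (0.0794) or night control array 2 (0.105).

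COR47, a dehydrin and a CBF target like the COR15 genes, had a small day difference. It read 3114, 5011 and 5102 on day pulse arrays, against 2133, 2568 and 2822 on day control arrays, and rose by 0.79 ± 0.28 (log2, SE, limma adjusted p = 0.0344). This call of COR47 was lost under 9 of 24 alternatives: without normalization (adjusted p = 0.171), with median centring (0.197), with no filter (0.0513), without a trend in the prior (0.0506), and without day pulse array 2 (0.113) or 3 (0.119) or day control array 1 (0.0931), 2 (0.068) or 3 (0.052). At night COR47 averaged 1089 ± 348 after the pulse and 583 ± 154 without it, a difference of 0.88 ± 0.28 that was not called (adjusted p = 0.0542) but was called under 12 of 24 alternatives. In the dark COR47 was higher in the day control than in the night control by 2.13 ± 0.28 (adjusted p = 3.62e-05), whereas both COR15 genes were lower there.

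**Figure D3:**
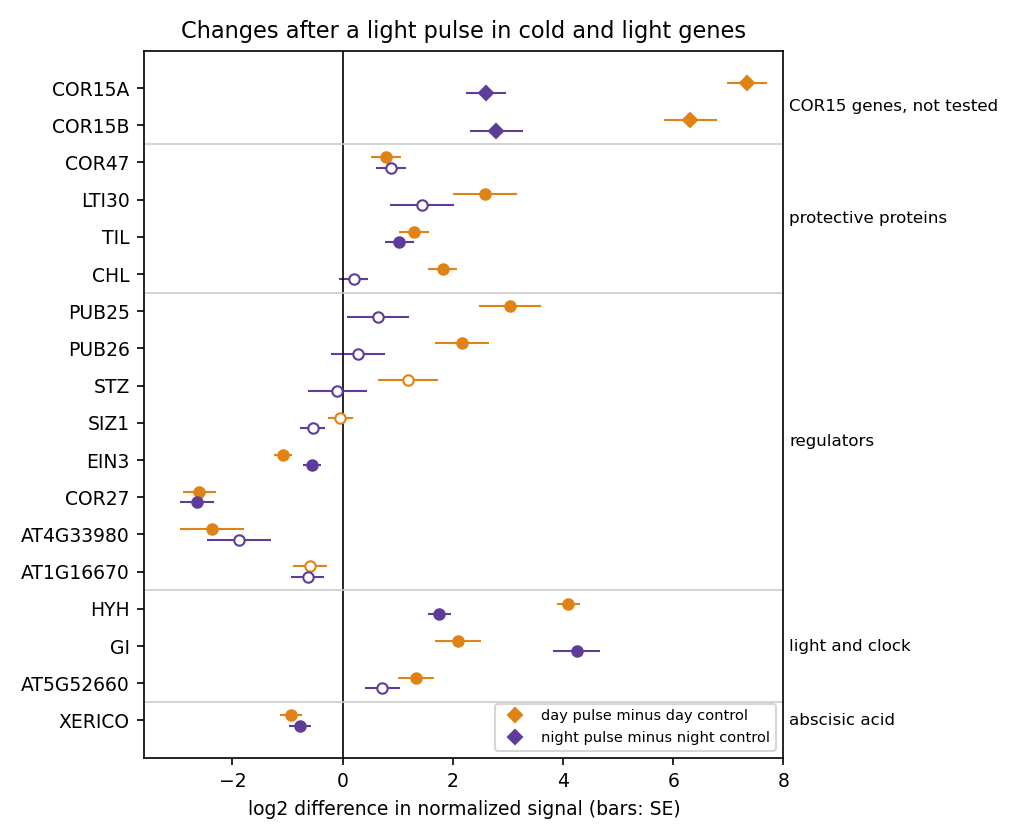
Log2 differences (± SE) between pulse and control in the day (orange) and at night (purple) for COR15A and COR15B (diamonds, not tested) and for the listed genes; filled circles passed the test and open circles did not. COR15A and COR15B lie furthest to the right in the day (7.34 and 6.31), and HYH stands next at 4.09.

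Of the 8 regulators of the cold response tested, 2 were called higher and 3 lower in the day with 3 not called. At night 2 were called lower and 6 were not called. Over all probe sets kept, 21% were called higher and 21.8% lower in the day. At night these shares were 6.07% and 6.82%. The median log2 differences of the 8 were -0.32 in the day and -0.55 at night, against -0.04 and -0.01 over all probe sets. The CBF genes themselves had no probe set annotated to them alone, so their levels could not be read here.

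PUB25 and PUB26 encode ubiquitin ligases that act on MYB15, a repressor of CBF genes. PUB25 read 89.4, 71.7 and 85.1 on day pulse arrays, against 26.2, 9.60 and 1.30 on day control arrays, and rose by 3.03 ± 0.56 (log2, SE, limma adjusted p = 0.00072), or 1.73 with dim signals raised. PUB26 averaged 66.6 ± 15.2 in the day pulse and 15.5 ± 12.4 in the day control (SD, n = 3 each), a rise of 2.17 ± 0.49 (adjusted p = 0.00274), or 1.36 with dim signals raised. At night neither was called, with 0.65 for PUB25 (adjusted p = 0.552) and 0.28 for PUB26 (adjusted p = 0.805). The difference between the day and night effects did not pass for PUB25 (2.38 ± 0.80, adjusted p = 0.0671), but with dim signals raised it was 1.23 for PUB25 and passed (adjusted p = 0.00589), as it did under 6 of 22 alternatives in all. These 6 include leaving out day control array 1 (adjusted p = 0.00431). For PUB26 it did not pass as measured (1.89 ± 0.69, adjusted p = 0.0894) or with dim signals raised (1.13, adjusted p = 0.135), and it passed under 3 of 22 alternatives, one of them leaving out day control array 1 (0.0131).

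COR27, a light- and cold-regulated repressor that acts in the clock, had pulse differences opposite in direction to those of the COR15 genes. Without a pulse COR27 averaged 84.6 ± 13.7 in the day control and 167 ± 8.42 in the night control (SD, n = 3 each). That is the same order of the 2 controls as for the COR15 genes. COR27 read 6.45, 17.7 and 15.1 on day pulse arrays, against 71.0, 98.5 and 84.2 on day control arrays. It fell by 2.60 ± 0.31 on the log2 scale (SE, limma adjusted p = 1.67e-05), or by 1.85 with dim signals raised. At night COR27 read 21.7, 22.1 and 32.7 with the pulse, against 158, 174 and 169 without it, and fell by 2.64 ± 0.31 (adjusted p = 7.84e-05). The day and night effects on COR27 differed by 0.04 ± 0.43 as measured and by 0.79 ± 0.29 with dim signals raised, and neither passed the test (adjusted p = 0.963 and 0.0865). The gene AT4G33980 averaged 13.3 ± 12.2 in the day pulse and 60.9 ± 16.3 in the day control. It fell by 2.37 ± 0.58 (limma adjusted p = 0.00506), or by 1.29 with dim signals raised. At night AT4G33980 had a difference of -1.88 ± 0.58 that was not called (adjusted p = 0.0506). With dim signals raised it was -1.38 and was called (adjusted p = 0.00102), and 8 of 23 alternatives called it, among them leaving out day pulse array 1 (0.0142) or 3 (0.015).

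EIN3, a transcription factor of ethylene signalling that represses CBF genes, averaged 784 ± 73.0 in the day pulse and 1658 ± 129 in the day control (SD, n = 3 each). It fell by 1.08 ± 0.16 in the day (log2, SE, limma adjusted p = 0.000144). At night EIN3 averaged 329 ± 63.2 with the pulse and 478 ± 38.4 without it, a fall of 0.55 ± 0.16 (adjusted p = 0.0417). That night call of EIN3 was lost under 11 of 24 alternatives, with adjusted p from 0.0213 to 0.655 over them, among them leaving out night pulse array 1 (0.171) or 2 (0.112), night control array 1 (0.143), 2 (0.0777) or 3 (0.111), day pulse array 2 (0.0558) or day control array 3 (0.0574). The remaining regulators were not called in either comparison: STZ, a zinc-finger repressor, had 1.18 ± 0.54 in the day (adjusted p = 0.0953), SIZ1, a SUMO ligase that acts on the CBF activator ICE1, had -0.04 in the day, and AT1G16670 had -0.59 in the day. At night their differences were -0.09 for STZ, -0.54 for SIZ1 and -0.64 for AT1G16670. In the day STZ was called under 4 of 24 alternatives and AT1G16670 under 1 of 23. At night SIZ1 was called under 4 of 24. Taking the 12 protective genes and regulators as 1 list, 3 were called at night, where 12.9% of all probe sets kept were called. The count was 1 or 6 when night control array 2 or day pulse array 1 was left out.

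Light-signalling and clock genes were tested for 3 of 25 listed members. HYH, a bZIP factor that acts with HY5 in light responses, read 364, 341 and 432 on day pulse arrays, against 14.3, 24.9 and 23.2 on day control arrays. HYH rose by 4.09 ± 0.21 in the day (log2, SE, limma adjusted p = 1.43e-08), or 3.91 with dim signals raised, and by 1.76 ± 0.21 at night (adjusted p = 9.36e-05). The difference between the effects was 2.33 ± 0.29 (adjusted p = 0.000277). Like the COR15 genes, HYH was lower in the day control than in the night control, but its levels after the 2 pulses differed by -0.02. GI, a clock component that also acts in freezing tolerance, averaged 1210 ± 81.6 in the day pulse and 286 ± 63.6 in the day control, and 171 ± 45.9 in the night pulse and 9.12 ± 9.04 in the night control (SD, n = 3 each). GI rose by 2.09 ± 0.43 in the day (adjusted p = 0.00142) and by 4.25 ± 0.43 at night (adjusted p = 2.56e-05), or by 2.83 at night with dim signals raised. AT5G52660 rose by 1.33 ± 0.32 in the day (adjusted p = 0.00451) and was not called at night (0.72, adjusted p = 0.184).

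Of 27 listed genes of abscisic acid and dehydration responses only XERICO, a RING-type protein that raises abscisic acid levels, was tested. XERICO averaged 132 ± 18.0 in the day pulse and 254 ± 39.3 in the day control (SD, n = 3 each), a fall of 0.93 ± 0.20 (log2, SE, limma adjusted p = 0.0021) that was not called without normalization (0.0609). At night XERICO fell by 0.78 ± 0.20 (adjusted p = 0.0193). The night call of XERICO was lost without normalization (0.393) and without night pulse array 1 (0.0814) or 3 (0.0931) or night control array 2 (0.0918) or 3 (0.059).

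The late embryogenesis abundant family, to which the COR15 proteins belong, was represented by 33 measured genes of 49 listed, of which 14 were kept. After the day pulse 4 of the 14 were called higher, 1 lower and 9 not called, where 21% of all probe sets kept were called higher and 21.8% lower. The median log2 difference of the 14 was -0.22, against -0.04 over all probe sets. COR47 and LTI30, described above, were 2 of the 4. At night limma called 0 of 14, where 12.9% of all probe sets were called, and 3 had an unadjusted p under 0.05. Night control array 3 stood apart for part of this family: it was the highest night control array for 9 of the 14, against 28.9% of all probe sets, and AT3G15670 read 392 there and 29.6 and 70.3 on the other 2. Without that array limma called 1 of the 11 members then kept. Leaving out night control array 1, night pulse array 1 or day pulse array 1 also gave 1 of 14. The part of night control array 3 in the night count was not tested. With array weights or only the groups compared, 2 of 14 were called. COR15B, too, was highest on night control array 3 within its group (94.0), and its night difference without that array was 3.28. AT2G23120 averaged 2337 ± 380 in the day pulse and 537 ± 78.1 in the day control (SD, n = 3 each), a rise of 2.11 ± 0.21 (limma adjusted p = 3.55e-06). At night AT2G23120 averaged 1016 ± 255 with the pulse and 754 ± 133 without it (0.41, adjusted p = 0.252), and the difference between the effects passed the test (1.70 ± 0.30, adjusted p = 0.0023). The last call of AT2G23120 was lost without normalization (0.0961) and with median centring (0.0645). LEA4-5, a group 4 member of the family, had overlapping day groups and a rise of 2.24 ± 0.74 (adjusted p = 0.0264) that dropped to 0.78 and was not called with dim signals raised (0.153). The call of LEA4-5 was also lost with array weights (0.115), with only the groups compared (0.0685), and without day pulse array 2 (0.0858) or 3 (0.0697) or day control array 1 (0.105) or 2 (0.0676). DI21 averaged 64.1 ± 8.49 in the day pulse and 139 ± 14.3 in the day control, 2.14-fold lower after the pulse (limma adjusted p = 0.0108), which was not called without normalization (0.0543).

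Of the leaf markers, 3 of 4 were called higher after the day pulse and limma called 0 of 4 at night, where 0 of 4 had an unadjusted p under 0.05. Over all probe sets kept, 21% were called higher in the day and 12.9% were called in either direction at night. RCA, rubisco activase, rose by 0.78 in the day (limma adjusted p = 0.00485) and SBPASE, an enzyme of the Calvin cycle, by 0.94 (adjusted p = 0.000266). LHCB4.2, a light-harvesting protein of photosystem II, rose by 0.91 (adjusted p = 0.0392), a call lost under 13 of 24 alternatives with adjusted p up to 0.22, among them leaving out any 1 of the day arrays except day control array 1, or night control array 2 or 3, while LHCB4.1 was not called (0.20). The summed leaf marker signal given above was higher on every day pulse array than on every day control array, and overlapped between night pulse and night control arrays. Neither RCA (0.0598) nor SBPASE (0.0742) was called in the day with arrays centred on their medians. The root marker PYK10, a beta-glucosidase, had a day difference of -0.56 that was not called (adjusted p = 0.0971).

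COR15A and COR15B are neighbours on chromosome 2 in the RefSeq gene order. Of the 10 genes within 5 places of the pair, 4 had a probe set annotated to them alone. AT2G42520, next to COR15B, averaged 175 ± 20.0 in the day pulse and 111 ± 19.9 in the day control (SD, n = 3 each). AT2G42520 rose by 0.65 ± 0.18 (log2, SE, limma adjusted p = 0.00899), and this call was lost without normalization (0.108), with median centring (0.0883), with only the groups compared (0.0557) and without the 2 arrays with a high GAPDH ratio (0.0695). At night AT2G42520 was not called (0.32 ± 0.18, adjusted p = 0.302). AT2G42490 was not called in the day (-0.15 ± 0.21, adjusted p = 0.58) or at night (-0.38 ± 0.21, adjusted p = 0.301). TBL39, whose family modifies cell-wall polysaccharides, was not called in the day (-0.62 ± 0.38, adjusted p = 0.207), and AT2G42560 was too dim to be kept, with group means of 6.51 to 12.9. None of these neighbours had a day difference near those of COR15A and COR15B.

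**Figure D4:**
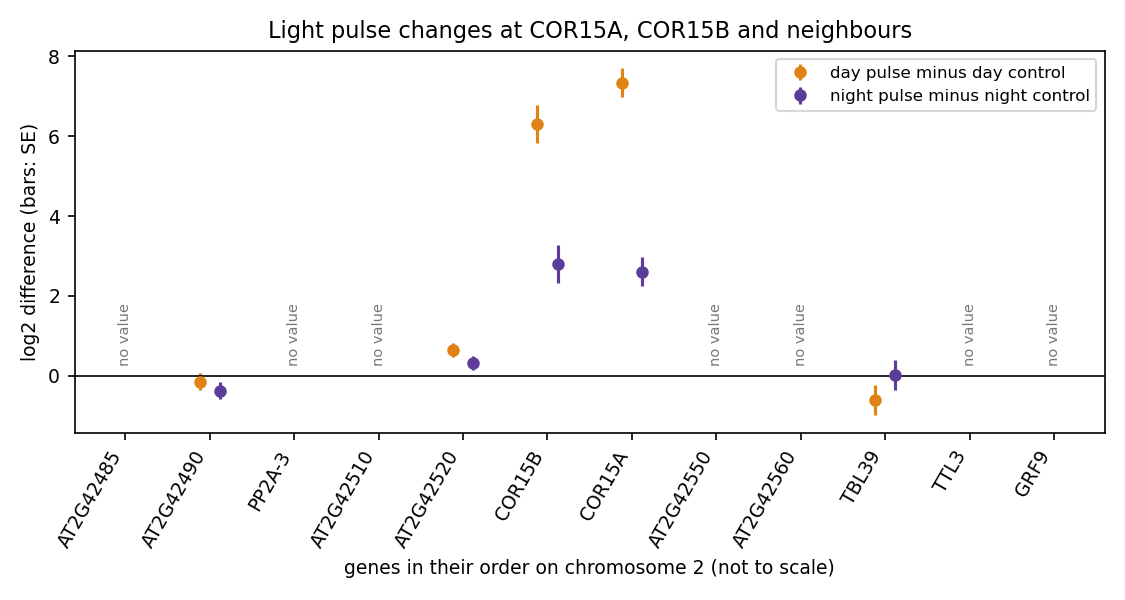
Log2 differences between pulse and control in the day and at night for COR15A, COR15B and the genes around them, in RefSeq order along chromosome 2; positions marked as having no value had no tested probe set. The pair stands at 7.34 and 6.31 in the day, next to 0.65 for AT2G42520.

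Genes with a pattern like that of the pair were found by the Pearson correlation of each of 7305 other single-gene probe sets with the mean standardized log2 signal of COR15A and COR15B over the 12 arrays. The correlation is over arrays in 4 groups and describes mainly the group levels, and it is given with no test. Its median over all probe sets was -0.08, and 146 of 7305 lay above 0.9. The 10 highest were AT5G54130 (0.984), AT2G46170 (0.975), CYTC-2 (0.975), AT5G59130 (0.975), AT3G45210 (0.974), AT4G12000 (0.971), AT4G10360 (0.969), AT3G52950 (0.969), PDC2 (0.968) and AT4G19450 (0.968). CYTC-2 is a cytochrome c of the mitochondrial electron chain and PDC2 a pyruvate decarboxylase of fermentation.

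AT5G54130, the most similar, read 407, 615 and 630.0 on day pulse arrays, against 25.8, 11.8 and 22.0 on day control arrays. It read 260.3, 323 and 432 on night pulse arrays, against 49.6, 48.6 and 63.9 on night control arrays. Its groups stood in the order of the COR15 genes, but those of the day pulse and the night pulse overlapped. The log2 differences of AT5G54130 were 4.69 in the day (4.43 with dim signals raised) and 2.58 at night. AT5G59130, whose control means were both dim (6.90 and 16.6), had 3.89 in the day and 1.87 at night, or 2.32 and 1.51 with dim signals raised. CYTC-2 had 3.15 in the day and 1.96 at night. All 10 genes, which were chosen for this pattern, had a higher mean after each pulse than in its control and a smaller day difference than COR15A or COR15B. Their day control means were below their night control means, although for AT5G59130 both were dim and did not differ once raised.

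Among the listed genes named above, the correlation with the pair was 0.92 for AT2G23120, 0.91 for HYH, 0.87 for LTI30 and 0.84 for PUB25. Then came AT5G52660 (0.79), PUB26 (0.74), TIL (0.67), LEA4-5 (0.63), RCA (0.59) and CHL (0.50). Lower still were GI and SBPASE (0.47 each), STZ (0.41), LHCB4.2 (0.35), LHCB4.1 (0.34) and COR47 (0.33). The correlation was negative for XERICO (-0.86), COR27 (-0.82), AT4G33980 (-0.76), DI21 (-0.61) and AT1G16670 (-0.51). It was also negative for EIN3 (-0.45), AT3G15670 (-0.39), PYK10 (-0.30) and SIZ1 (-0.15). The gene in the top place, AT5G54130, stayed among the 10 most similar genes under 17 of 17 alternatives, AT5G59130 under 16, and AT2G46170, CYTC-2 and AT3G45210 under 15. PDC2 and AT4G19450 stayed under 4 each.

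**Figure D5:**
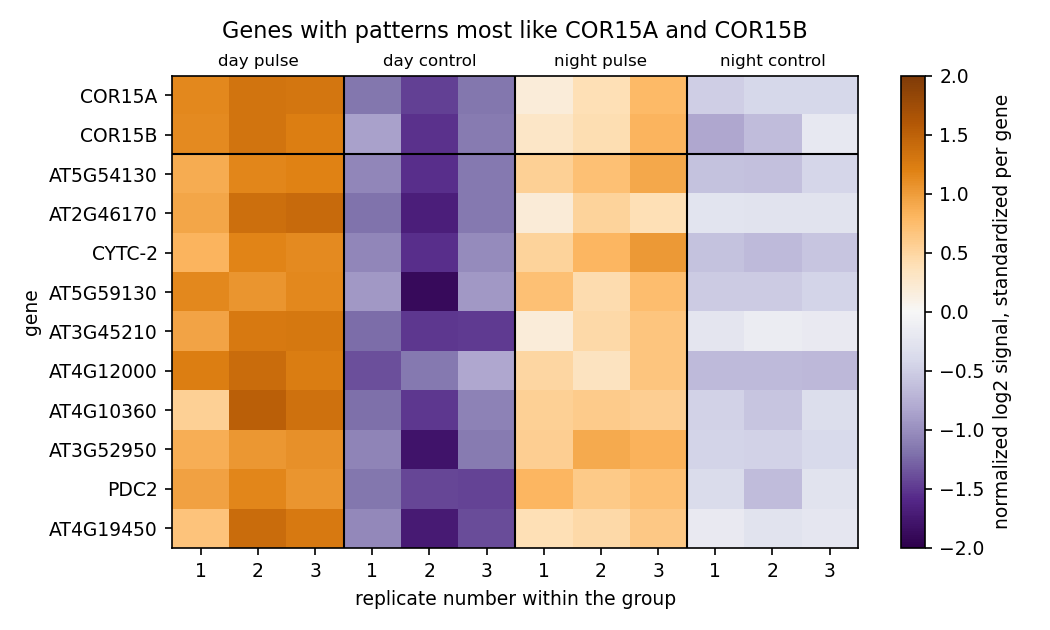
Standardized log2 signal of COR15A, COR15B and the 10 most similar genes (rows) on the 12 arrays (columns, by group). Each row is high on the day pulse arrays, intermediate to high on the night pulse arrays and lowest on the day control arrays, and correlations with the COR15 pair run from 0.984 for AT5G54130 down to 0.968.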

How the data were processed

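RNA from aerial rosettes was hybridized to 12 ATH1 arrays, 3 in each of 4 groups, which were taken from the sample titles. The deposited values are linear intensities, 1 for each probe set on each array. Per the submitters' processing notes the authors used MAS5, with no version or settings stated. The arrays had not been brought to a common level. Of 22810 probe sets, 64 controls were left out; of the other 22746, 13513 were annotated to 1 gene, 503 to several and 8730 were not listed in the platform annotation, whose genome build is not named there. Of the 13513, 13436 matched RefSeq (TAIR10.1), which gave the names and the gene order. 0 other columns of values were present.

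Intensities plus 2 were taken to log2 and quantile normalized, and the 13647 probe sets with a mean above the 40th percentile were kept, 7331 of them with 1 gene. One model of 4 group means was fitted to all 12 arrays with limma 3.58.1 (lmFit, eBayes with trend; R 4.3.3; 8 residual degrees of freedom), two-sided, with calls at an adjusted p (Benjamini-Hochberg, over all probe sets kept) under 0.05. Where a gene had several probe sets, the one with the highest mean was used. The fit was tested on simulated data with known changes. No 2 arrays were copies, with at most 0.870% identical values. No slide or scan date was given, so neither was tested as a batch.

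The members and the 7 gene lists (cold-protective genes, regulators of the cold response, light and clock, abscisic acid and dehydration, late embryogenesis abundant family, leaf markers and root markers; 179 genes, 53 with a probe set and 33 tested) were chosen with earlier results of these data known. Named were the 2 members, each tested gene of lists with 8 or fewer, the largest calls of longer lists, the 10 most similar genes and the neighbours within 5 places. Alternatives changed the normalization, pseudocount, filter, trend, array weights, samples fitted and replicate block, raised dim signals, or left out arrays.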

Additional observations from a re-analysis of the deposited data

Results flagged for a closer look

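For 5 of the 33 listed genes tested, where 12.7% of all probe sets kept passed the same test, the effect of the light pulse differed between the subjective day and the night, by the test of the difference itself (day effect minus night effect, log2 ± SE, limma adjusted p over all probe sets kept). HYH had the difference with the lowest adjusted p, 2.33 ± 0.29 (adjusted p = 0.000277), and AT2G23120 of the late embryogenesis abundant family had 1.70 ± 0.30 (0.0023). CHL, the chloroplast lipocalin, had 1.61 ± 0.37 (0.0124). In GI the difference ran the other way, at -2.15 ± 0.60 (0.0331); with dim signals raised it was -0.74 and was not called (0.117), and 13 of 23 alternatives lost the call, among them leaving out day pulse array 2 (0.0541) or 3 (0.0647), day control array 1 (0.0519), 2 (0.0505) or 3 (0.0634), night pulse array 1 (0.0717) or 3 (0.0652), or night control array 2 (0.0638) or 3 (0.0791). SBPASE had 0.72 ± 0.22 (0.0453), which was lost under 17 of 23 alternatives, the replicate block among them (0.0535), and with any 1 of the 12 arrays left out other than night pulse array 3. With 3 arrays in a group, no single array was tested for standing apart from its group.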

How the results depend on the processing

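None of the 10 member differences turned sign under any alternative; 193 of 208 recomputed values stayed within 1 SD of the replicates and 15 moved. For COR15A the day difference became 6.33, 5.69 and 6.57 with a pseudocount of 16, a pseudocount of 32 and dim signals raised, and the day-minus-night difference 3.93, 3.48 and 3.96. For COR15A the difference between controls became -1.62, -1.22 and -1.61 under the same 3 settings and -2.93 without normalization, which gave 1.71 between the pulses. COR15B had 5.37 and 4.77 in the day with pseudocounts of 16 and 32, and with 32 it had 2.58 for day minus night and -0.80 between controls. Without normalization 3721, 669 and 439 probe sets were called in the day, at night and for their difference, against 5833, 1760 and 1728 as reported. Median centring called 2728 for the difference, and array weights 3513 at night and 5308 for the difference. Leaving out 1 array gave 1105 to 2295 at night (lowest without night control array 2) and 1147 to 2650 for the difference (lowest without night control array 3, highest without day control array 1). Of 12 listed cold genes, 9 were called in the day as reported, where 42.7% of all probe sets kept were called. A filter at the 60th percentile kept 7 of the 12 for testing and called 5. At night 3 of the 12 were called as reported, where 12.9% of all probe sets kept were called. With a pseudocount of 16 or 32 or dim signals raised, 5 were called at night. The night count was 6 with array weights, with only the groups compared or without the 2 arrays with a high GAPDH ratio. It was 1 to 6 with 1 array left out. Of the 10 most similar genes, 4 stayed without normalization, 6 with median centring, 6 and 5 with pseudocounts of 16 and 32, 5 without the 2 arrays, and 6 to 9 with 1 array left out. Replicate numbers were not treated as pairing the arrays, which the data do not exclude: deviations of same-numbered arrays correlated at -0.11 to 0.45, with 8 of 18 above 0.1, and an array correlated best with its own number in 20 of 36 checks. With a replicate block 6214, 1964 and 2019 probe sets were called in the day, at night and for the difference, 6928 between controls and 5102 between pulses, and 10 and 4 listed cold genes in the day and at night. Scaling moved the balance of calls: 59% of calls for the difference were higher as reported and 25.3% with median centring, and in the day 49.1%, 33.9% with median centring and 57.8% without normalization. At night the share was 47.1%, and 63.8% without normalization; between controls 46.8%, 18.9% without normalization and 60.8% with median centring; between pulses 46.3%, and 10.1% without normalization. Median log2 differences over all probe sets moved to -0.25 in the day and -0.31 for the difference with median centring, to 0.19 between controls with it, and to -0.54 between controls and -0.45 between pulses without normalization. Of 135 tested differences of named genes, over the 5 comparisons, 56 were called. Of all probe sets kept, 12.7% to 48.4% were called in these comparisons. The late embryogenesis abundant genes among the 135 were only those called in the day, which raised the number called by construction. Of the 56, 28 kept the call under every alternative that could be run. The sign turned under at least 1 alternative for 33 of the 135, none of them among the 56 called. Dim day control signals limit both COR15 folds to lower bounds. The causes of the moves were not tested, apart from the pseudocounts and raised signals, which shrink differences of dim genes by construction.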
